A study of Mus musculus with 12 samples.

Results

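The nuclear-encoded subunits of oxidative phosphorylation were followed in mouse embryonic fibroblasts (MEFs) with and without TAp73, at 21% oxygen and after 4 or 8 h at 1% oxygen. Members were chosen by their symbol in the array's annotation, namely genes starting with Ndufa, Ndufb, Ndufc, Ndufs or Ndufv (the assembly factors Ndufaf left out), Sdha to Sdhd, and genes starting with Uqcr, with Cox4 to Cox8 or with Atp5. This gave 79 of the 19057 genes that the annotation names, on 122 probes. Of these, 72 genes on 106 probes passed the detection filter, which asked for a detection p-value under 0.05 on each array of some group. They comprise 34 of 35 members of complex I, 3 of 4 of complex II, 7 of 7 of complex III, 12 of 17 of complex IV, in which Ndufa4 was counted, and 16 of 16 of complex V. The rule also takes in Ndufs5-ps, whose symbol marks a pseudogene. The statistics below are over the 72 genes that passed, and where a gene has several probes the brightest on average stands for it.

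Oxidative phosphorylation couples the oxidation of NADH and succinate to ATP synthesis in the inner mitochondrial membrane. Complex I takes electrons from NADH and complex II from succinate, complex III passes them to cytochrome c, complex IV reduces oxygen to water, and complex V, the ATP synthase, uses the proton gradient that the pumps build. Most subunits are encoded in the nucleus, and a few core ones in mitochondrial DNA. At low oxygen, hypoxia-inducible factors raise pyruvate dehydrogenase kinase 1 (Pdk1), which holds pyruvate back from the citric acid cycle. In mammalian cells they also drive a subunit exchange in cytochrome c oxidase, in which Cox4i2 takes the place of Cox4i1, a subunit that the protease Lonp1 degrades. TAp73 denotes the p73 isoforms with a transactivation domain, products of the Trp73 gene.

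RNA was measured on 12 Illumina bead arrays, 2 for each of 6 groups: TAp73+/+ and TAp73-/- MEFs, each untreated (serum-containing medium at 21% oxygen) and after 4 or 8 h at 1% oxygen. RNA came from snap-frozen cells by Trizol and a column and was hybridised as biotinylated cRNA. Whether the 2 arrays of a group come from separate cultures is not stated in the labels, so p-values measure only the spread between arrays, which may be technical. Nor is the number of MEF lines behind each genotype stated, so that genotype and line cannot be told apart, and fewer cells of a type and less RNA per cell cannot be told apart either.

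An array detected 42.8% to 44.5% of its 45281 probes, with mean signals of 428.7 to 607.8. Of 10 fibroblast markers, 5 or 6 were detected in each group, while Col1a1, Col1a2, Col3a1 and S100a4 were detected in none. The summed signal of the 10 was lowest on the untreated TAp73+/+ arrays, at 4522 and 6108, with 7295 to 9986 elsewhere. Of 4 epithelial markers, 2 or 3 were detected in each group (summed signal 5173 to 8230), with Epcam not detected, and at most 1 marker each of skeletal muscle, macrophages and endothelium was. The single Trp73 probe was detected on no TAp73+/+ array and on 5 of the 6 TAp73-/- arrays. Whether it lies in the deleted stretch is unknown, so it does not check the genotype.

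One array stands apart in the subunits. Untreated TAp73+/+ replicate 1 read lower than replicate 2 for 58 of 72 subunits, with a median absolute difference of 0.27 on the log2 scale against 0.17 over all genes, and 32 of 72 subunits had their lowest value there. In the other groups the median absolute difference of the subunits was 0.07 to 0.14. Over all genes the 4 h TAp73-/- pair differed as much (0.17), and its replicate 2 held the lowest value of 10 subunits and the highest of 12. A score of how the probes of a gene disagree, computed without the members, was 0.59 and 0.39 on the untreated TAp73+/+ arrays. It was -0.08 and -0.105 on those of 4 h, 0.19 and 0.30 on those of 8 h, and -0.37 to -0.09 on the TAp73-/- arrays. The score thus differs between the groups, so a fit with it as a covariate cannot fully separate it from genotype and time. What part marker level or probe score has in the results was not tested, beyond the values given below with the score as a covariate and without replicate 1.

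Cox7a2l, Ndufv3, Cox7a1 and Ndufa6 were the 4 members called higher at 8 h in both genotypes, and their promoters are shown to set them beside the core letters of the hypoxia response element. Each sequence is from RefSeq (GRCm38.p6), runs 5′ to 3′ on the strand of the gene and covers 300 bases around its start, most of them upstream. Cox7a2l lies on the minus strand (chr17:83514284-83514583), Ndufv3 on the plus strand (chr17:31519865-31520164), Cox7a1 on the plus strand (chr7:30183921-30184220) and Ndufa6 on the minus strand (chr15:82354242-82354541). Capitals mark ACGTG or GCGTG on either strand (CACGT and CACGC when read on the other).
Cox7a2l: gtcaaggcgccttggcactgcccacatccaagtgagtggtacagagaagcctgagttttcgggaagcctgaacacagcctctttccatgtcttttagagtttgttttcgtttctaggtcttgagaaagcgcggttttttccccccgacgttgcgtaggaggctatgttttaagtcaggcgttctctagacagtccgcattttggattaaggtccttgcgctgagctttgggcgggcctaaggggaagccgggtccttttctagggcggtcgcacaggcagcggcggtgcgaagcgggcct
Ndufv3: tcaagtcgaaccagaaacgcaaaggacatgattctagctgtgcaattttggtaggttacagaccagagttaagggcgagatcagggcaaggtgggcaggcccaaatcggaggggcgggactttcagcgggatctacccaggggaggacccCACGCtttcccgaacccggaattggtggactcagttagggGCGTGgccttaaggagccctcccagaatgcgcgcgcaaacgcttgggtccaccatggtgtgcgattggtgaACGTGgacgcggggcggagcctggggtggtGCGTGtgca
Cox7a1: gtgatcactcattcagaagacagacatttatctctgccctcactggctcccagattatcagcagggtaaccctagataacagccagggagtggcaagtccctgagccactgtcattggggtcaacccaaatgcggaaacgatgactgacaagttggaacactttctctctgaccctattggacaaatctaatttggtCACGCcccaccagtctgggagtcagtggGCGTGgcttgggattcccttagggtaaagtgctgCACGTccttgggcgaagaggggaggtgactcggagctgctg
Ndufa6: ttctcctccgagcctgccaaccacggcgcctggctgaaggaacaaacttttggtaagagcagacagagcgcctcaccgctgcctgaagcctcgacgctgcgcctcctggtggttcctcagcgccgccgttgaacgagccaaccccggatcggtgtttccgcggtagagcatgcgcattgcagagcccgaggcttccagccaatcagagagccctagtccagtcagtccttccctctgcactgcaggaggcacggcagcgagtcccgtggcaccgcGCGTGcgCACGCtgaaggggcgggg
Cox7a2l has no match in this window, Ndufv3 has 4, Cox7a1 has 3 and Ndufa6 has 2. A promoter was listed for 65 of the 79 members, and 42 of them (64.6%) hold ACGTG or GCGTG, against 43.8% of all 27025 promoters of that length. Of the same 65, 5 (7.69%) hold the palindromic motif of nuclear respiratory factor 1, against 0.977% of all, and 4 (6.15%) hold CCGGAAGT, an ETS motif bound by GABP, against 4.0%. Both strands were searched for each. Base composition was not matched, and a match of letters is a description, not a binding site.

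The range of the 6 group means had a median of 0.47 on the log2 scale over the 72 subunits and 0.63 over all 10873 genes tested, and it reached 1 for 9 subunits (12.5%) against 19.9% of all genes. Ndufa8, an accessory subunit of complex I, had the narrowest range (0.09), followed by Uqcrc1, a core protein of complex III (0.11), and Atp5b, the catalytic beta subunit of the ATP synthase (0.13). The widest was that of Ndufb4, a membrane-arm subunit of complex I (1.34), with Atp5pb, the b subunit of the ATP synthase stalk, at 1.27 and Atp5k, its e subunit, at 1.25. Without untreated TAp73+/+ replicate 1 the range of Atp5pb was 0.76, below that of 8 subunits that still reached 1 (11.1%, against 19.6% of all genes), led by Atp5k (1.42), and the subunits' median was 0.42. That of Ndufa8 was then 0.12, against 0.11 for Uqcrc1. Both ranges of Ndufa8 are those of the probe used, which read 12.32 to 12.49 over the arrays. Its second probe ran more widely, from 10.14 (untreated TAp73+/+ replicate 1) to 11.24 (4 h TAp73-/- replicate 1).

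**Figure D1:**
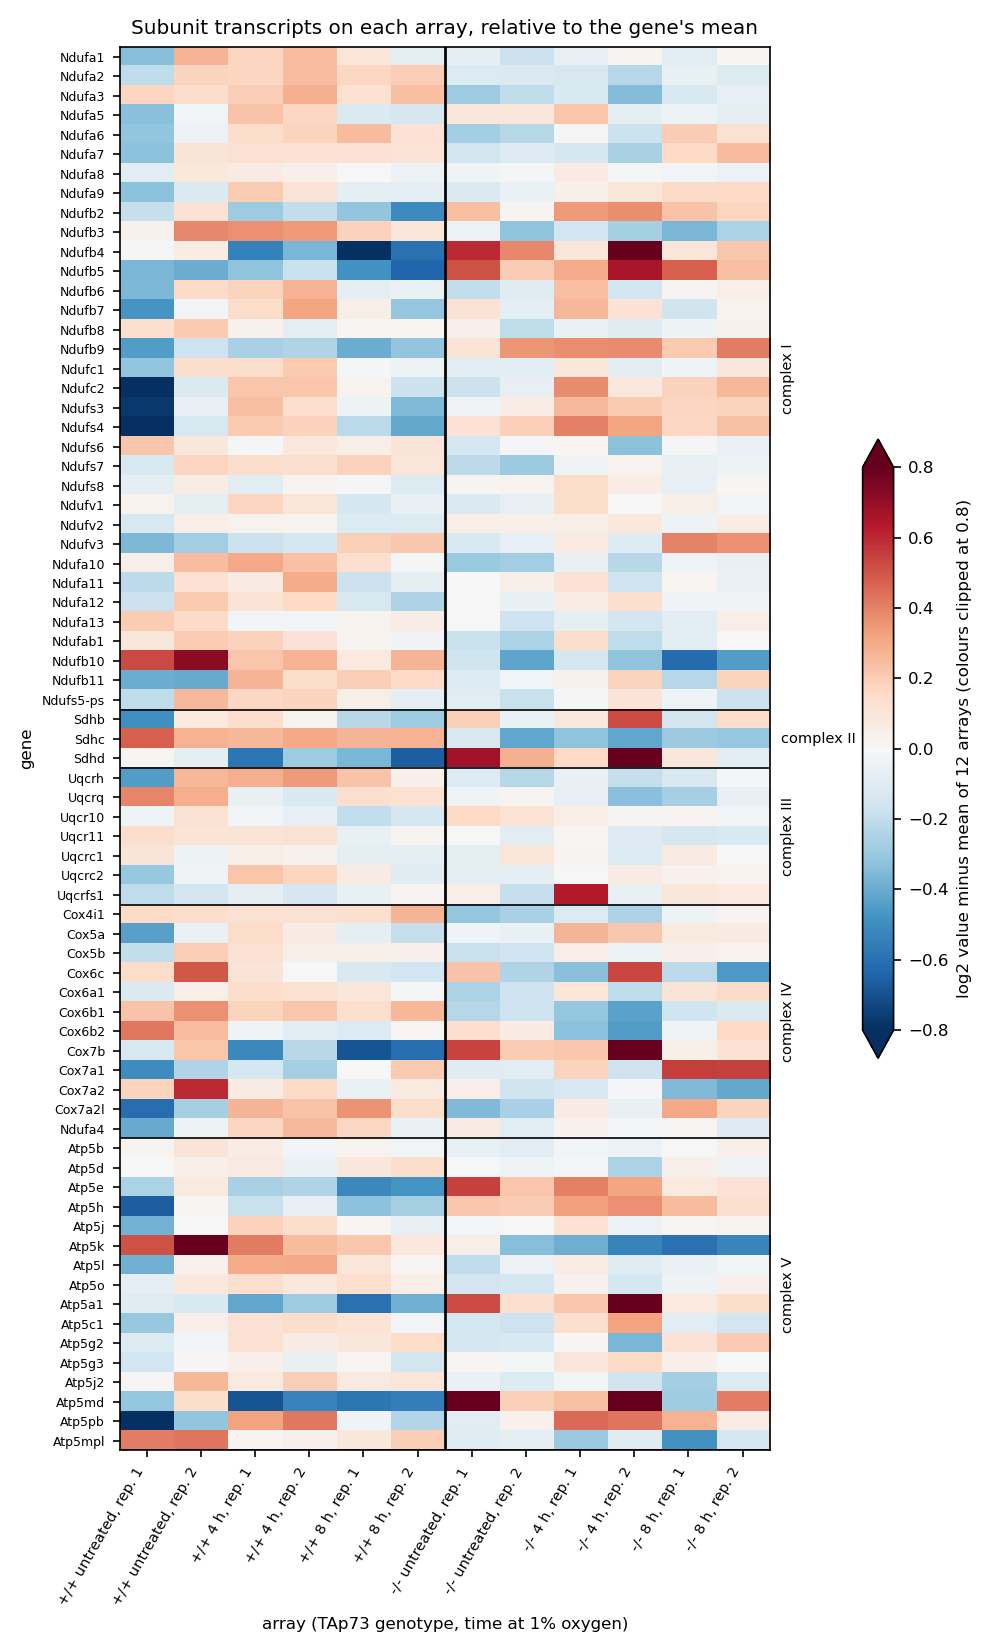
Log2 values of the 72 subunit genes (rows, grouped by complex) on the 12 arrays (columns), each as the difference from the gene's mean over all arrays, with colours clipped at 0.8. Untreated TAp73+/+ replicate 1, the first column, holds the lowest value of 32 genes, and a set with Ndufb4, Cox7b and Sdhd is highest on 4 h TAp73-/- replicate 2.

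Members not seen in these cells include the alternative partners of several subunits. Cox4i2, the hypoxia-responsive counterpart of Cox4i1, was detected on 0 of 12 arrays, as were Cox6a2 and Cox8b, the muscle forms of their subunits, Cox7b2, Cox8c, and the probes of the core subunits Sdha (complex II) and Ndufs1 (complex I). Signals of these 7 probes lay between 46.88 and 74.23, so no change can be read for any of them, and a probe without signal does not show that the gene is silent. Ndufa4l2, Cox8a and Atp5g1 were not analysed here.

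After 4 h at 1% oxygen, 12 subunits rose and 3 fell in TAp73+/+ cells (limma, adjusted p below 0.05). That is 20.8% of the 72 subunits, where 28% of all genes tested were called, 12% higher and 16% lower. The median change of the subunits was 0.11 on the log2 scale, against -0.07 for all genes. Complex I held 7 of the 12 rises, with 0 members called lower, and complexes IV and V had 2 rises and 1 fall each. Most of these calls ended when untreated replicate 1 or either 4 h array was left out, while most stayed without untreated replicate 2. Such an omission leaves 1 array in its group, so a call can end without its change moving. Without untreated TAp73+/+ replicate 1, 3 of the 15 remained called (Cox7a2l, Ndufb11 and Atp5pb), without 4 h replicate 2 the same 3, and without 4 h replicate 1, 2 (Cox7a2l and Atp5pb). The median change of the subunits was -0.01 without untreated replicate 1 (all genes -0.06) and -0.27 with the probe score as a covariate (all genes -0.01), under which 12 of the 15 changed sign and none was called. The covariate raised the median standard error of the subunits here from 0.12 to 0.35, so a changed sign need not be a reversal.

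Atp5pb read 9.74 and 10.76 in untreated TAp73+/+ cells, then 11.40 and 11.50 after 4 h (1.20 ± 0.25, SE of the model, adjusted p = 0.0054). Both treated arrays lie above both untreated ones, which themselves differ by 1.02. Without replicate 1 its change was 0.69, and another of its 4 probes was called higher as well (1.51), while the others read 0.19 and -0.15. Ndufs4, an accessory subunit needed for a stable NADH-oxidising arm of complex I, read 10.77 and 11.72 untreated against 12.06 and 12.03 after 4 h (0.80 ± 0.23, adjusted p = 0.0237). Here too both treated arrays are above the untreated ones, of which replicate 1 is far the lower. Its change was 0.33 and no longer called without replicate 1, and its other probes read 0.42, 0.07 and -0.19.

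Ndufc2, a membrane-arm subunit (0.71), the core subunit Ndufs3 (0.60), Atp5l, the g subunit of the ATP synthase (0.47), and Ndufa4, a subunit of complex IV (0.44), rose at 4 h and were no longer called without replicate 1, where they read 0.34, 0.25, 0.26 and 0.26. The same holds for Ndufa5 (0.37), Ndufa9 (0.37), Uqcrc2, a core protein of complex III (0.36), and Ndufa6 (0.34), at 0.22, 0.27, 0.22 and 0.20 without it. The second probe of Ndufa5 read -0.15.

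Uqcrq, a small subunit of complex III, read 9.10 and 8.998 untreated against 8.65 and 8.58 after 4 h (-0.43 ± 0.11, adjusted p = 0.0169). Atp5mpl, the small proteolipid of the ATP synthase, changed by -0.39, while its second probe, dim at 4.91 to 5.84, went the other way (+0.22, not called). Cox6b2, known as the testis form of its subunit, fell by 0.39 on the log2 scale (adjusted p = 0.0209). All 3 calls ended without untreated replicate 1, at -0.38 for Uqcrq, -0.40 for Atp5mpl and -0.31 for Cox6b2, and also without either 4 h array.

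At 8 h in TAp73+/+ cells, 5 subunits rose and 7 fell, which is 16.7% of the 72 against 23.9% of all genes tested, 11.6% higher and 12.3% lower. The median change was -0.03 for the subunits and -0.02 for all genes, and the subunits' median moved to -0.13 without untreated TAp73+/+ replicate 1 (all genes -0.02), -0.14 with the probe score (all genes -0.01) and -0.20 with median centring (all genes -0.15). The rises were Cox7a2l, which is known to join complexes III and IV into supercomplexes (0.69), Ndufb11, of the membrane arm of complex I (0.58), Ndufv3, an accessory subunit of the NADH-oxidising arm (0.52), Cox7a1, the heart and muscle form of its subunit (0.47), and Ndufa6, an accessory subunit of complex I (0.37). The falls were in Ndufb4 (-0.80), Cox7b, a small subunit of complex IV (-0.69), Atp5k (-0.54), Ndufb10 (-0.45) and Ndufb2 (-0.38) of the membrane arm of complex I, Atp5e, the epsilon subunit of the ATP synthase (-0.41), and Cox6b2 (-0.39). Without untreated TAp73+/+ replicate 1, 8 of the 12 calls remained, while those of Cox7a1 (0.34), Ndufa6 (0.23), Ndufb4 (-0.84) and Cox6b2 (-0.30) ended. Without 8 h replicate 1 of TAp73+/+ 2 members were called in all, and without replicate 2, 3. Between 4 and 8 h, Ndufv3 alone was called (1.39% of subunits, 13.8% of all genes, 8.62% higher and 5.22% lower).

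Few subunits were called in TAp73-/- cells. At 4 h, Cox6b2 alone was called (-0.49 ± 0.11, adjusted p = 0.0245), 1.39% of the subunits against 6.96% of all genes tested, 3.13% higher and 3.84% lower. The median change of the subunits was 0.09 (all genes -0.03), with a positive change in 52 of the 72. That median was 0.12 with median centring (all genes -0.02) and -0.05 with the probe score as a covariate (all genes -0.015). At 8 h, 4 subunits rose and none fell, 5.56% against 20.9% of all genes, 10.6% higher and 10.2% lower. The 4 were Cox7a1 (0.64), Cox7a2l (0.55), Ndufv3 (0.47) and Ndufa6 (0.41). Between 4 and 8 h, Cox7a1 (0.54), Cox6b2 (0.45) and Ndufv3 (0.40) rose, 4.17% of subunits against 10.6% of all genes, 6.75% higher and 3.84% lower. The genotypes have separate untreated arrays, so their calls can be set side by side. They are not independent, since the model gives each gene 1 spread for all groups. The 4 rises at 8 h in TAp73-/- are 4 of 4 there and 4 of the 5 in TAp73+/+, where the rises shared over all genes are 54.2% of those in TAp73-/- and 49.6% of those in TAp73+/+. Of the 7 falls in TAp73+/+, 0 were called in TAp73-/-, where 45.1% of such falls over all genes were, and 6 of the 7 had the same sign there (91% over all genes). Among the 4 h calls in TAp73+/+, 11 of the 12 rises and 3 of the 3 falls had the same sign in TAp73-/- (86.7% and 88.1% over all genes).

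**Figure D2:**
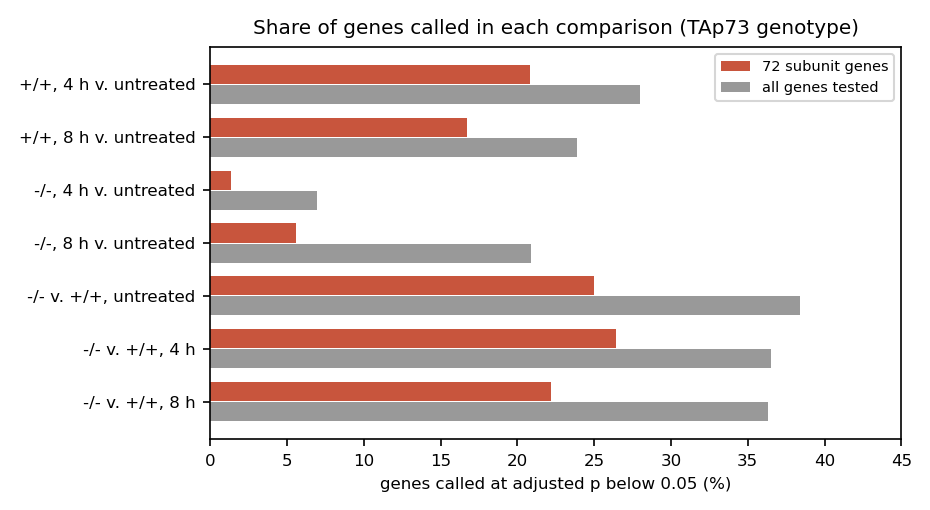
Share of genes called (adjusted p below 0.05, limma) among the 72 subunit genes and among all 10873 genes tested, in 7 comparisons. The subunits' share is the lower of each pair, from 1.39% against 6.96% in TAp73-/- at 4 h to 26.4% against 36.5% between genotypes at 4 h.

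In TAp73+/+ cells Cox7a2l read 10.77 and 11.11 on the untreated arrays, 11.64 and 11.60 on those of 4 h and 11.73 and 11.52 on those of 8 h. In TAp73-/- cells it read 11.02 and 11.12 on the untreated arrays, 11.44 and 11.31 on those of 4 h and 11.68 and 11.55 on those of 8 h. Every array at 1% oxygen lies above every untreated array of either genotype. It rose in TAp73+/+ by 0.69 ± 0.13 after 4 h (adjusted p = 0.00332) and by 0.69 ± 0.13 after 8 h (adjusted p = 0.00376), and these calls held without each of the 12 arrays in turn. In TAp73-/- the change was 0.31 ± 0.13 at 4 h, not called, and 0.55 ± 0.13 at 8 h (adjusted p = 0.0127), a call that ended without untreated replicate 1 or 8 h replicate 1 of that genotype.

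Ndufv3 read 11.91 and 11.99 on the untreated TAp73+/+ arrays, 12.10 and 12.13 on those of 4 h and 12.46 and 12.48 on those of 8 h. On the TAp73-/- arrays it read 12.15 and 12.20 before, 12.34 and 12.16 after 4 h and 12.66 and 12.64 after 8 h. The 8 h arrays are the highest of each genotype, with the 4 h arrays close to the untreated ones. The 8 h changes of 0.52 ± 0.09 (adjusted p = 0.00318) and 0.47 ± 0.09 (adjusted p = 0.00577) held without each array in turn, and Ndufv3 also rose from 4 to 8 h in both genotypes (0.36 and 0.40). Of its 2 other probes, one read 0.52 and 0.38 at 8 h, both called. The other, dimmer at 5.37 to 6.92 where the probe used read 11.91 to 12.66, rose by 1.23 and 0.62 at 4 h. It read 0.39 (not called) and 0.59 at 8 h, and changed by -0.84 from 4 to 8 h in TAp73+/+. So this dim probe departs from the other probes on the time course, while all share their direction at 8 h.

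Cox7a1 read 8.50 and 8.76 on the untreated TAp73+/+ arrays, 8.86 and 8.74 after 4 h and 8.999 and 9.21 after 8 h. With TAp73 deleted it read 8.90 and 8.92 before, 9.18 and 8.84 after 4 h and 9.55 and 9.55 after 8 h. The 2 arrays of TAp73-/- at 8 h are above all others. The 8 h change was 0.47 ± 0.14 (adjusted p = 0.0281) in TAp73+/+ and 0.64 ± 0.14 (adjusted p = 0.0078) in TAp73-/-, where it held without each array in turn. Ndufa6 read 11.73 and 12.003 untreated and 12.30 and 12.16 after 8 h in TAp73+/+, and 11.78 and 11.82 and 12.25 and 12.17 in TAp73-/-. Its 8 h arrays lie above the untreated ones in each genotype (0.37 ± 0.12, adjusted p = 0.0401, and 0.41 ± 0.12, adjusted p = 0.0273), but both calls are fragile. That in TAp73+/+ held in 3 of 12 omissions of single arrays and ended also with no detection filter, and that in TAp73-/- held in 8 of 12, ending without each of the untreated and 8 h arrays of its genotype.

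**Figure D3:**
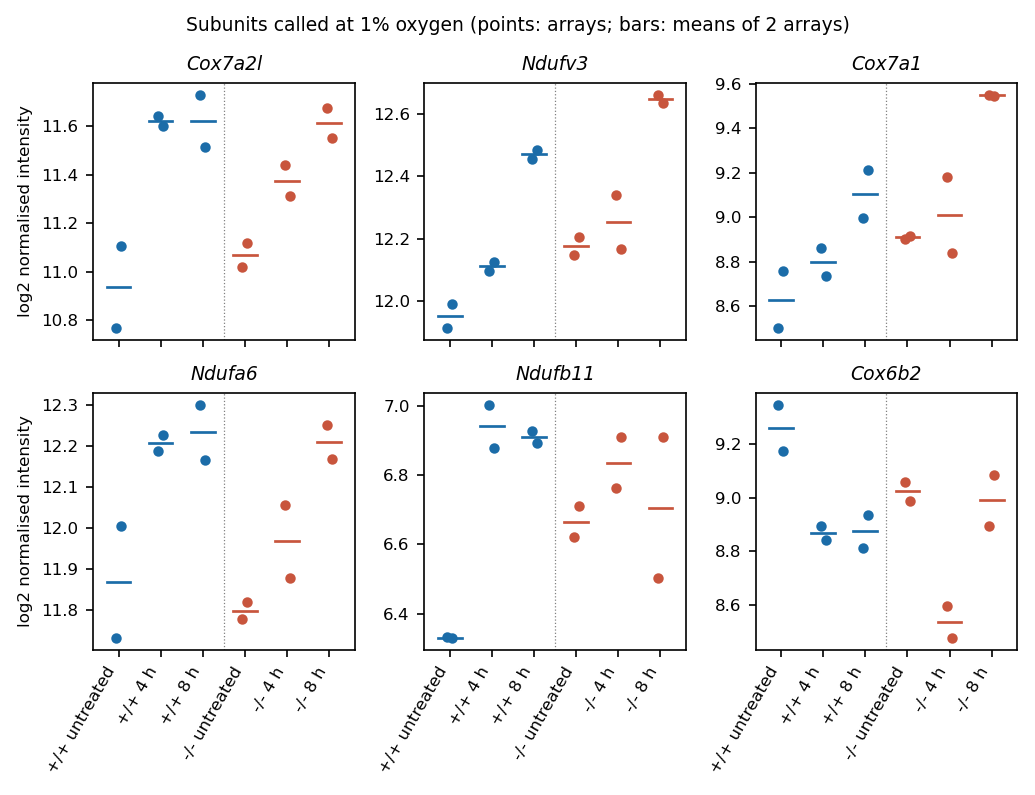
Log2 normalised intensity of 6 subunits on every array (points) with the mean of 2 arrays (bars), for TAp73+/+ and TAp73-/- in separate colours. Cox7a2l, Ndufv3, Cox7a1 and Ndufa6 are higher at 8 h than untreated in both genotypes, Ndufb11 separates by oxygen in TAp73+/+, and Cox6b2 is lowest at 4 h in TAp73-/-.

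These rises also depend on how arrays are scaled. With median centring in place of quantile normalisation, the median change of all genes at 8 h moved from -0.02 to -0.15 in TAp73+/+ and from 0.00 to -0.18 in TAp73-/-. The changes of Cox7a1, Cox7a2l, Ndufv3 and Ndufa6 in TAp73-/- were then 0.40, 0.33, 0.26 and 0.21, all above that median and none called, and 4 other subunits (Atp5e, Atp5k, Atp5mpl and Uqcrq) were called lower. In TAp73+/+ the split was then 3 rises and 2 falls at 4 h and 2 rises (Cox7a2l and Ndufb11) and 11 falls at 8 h. Between 4 and 8 h it was 0 and 1 in TAp73+/+ and 0 and 1 in TAp73-/-. The shares of all genes called with median centring are not set beside these splits. With the probe score as a covariate, Cox7a1, Cox7a2l, Ndufv3 and Ndufa6 stayed called in TAp73-/- at 8 h (0.62, 0.47, 0.46 and 0.36), with 21.4% of all genes called. In TAp73+/+ no subunit was called with it, where 0.147% of all genes were at 4 h, 7.02% at 8 h and 0.046% between the times. In TAp73-/- none was called at 4 h (0.773% of all genes) or from 4 to 8 h (0.11%).

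Ndufb11 read 6.33 and 6.33 on the untreated TAp73+/+ arrays, 7.003 and 6.88 after 4 h and 6.93 and 6.89 after 8 h. In TAp73-/- cells it read 6.62 and 6.71 before, 6.76 and 6.91 after 4 h and 6.50 and 6.91 after 8 h. It rose in TAp73+/+ by 0.61 ± 0.13 after 4 h (adjusted p = 0.00611) and 0.58 ± 0.13 after 8 h (adjusted p = 0.00908), with neither call holding without replicate 1 of its treated pair, and was not called in TAp73-/- (0.17 and 0.04). Its second probe, dimmer at 4.88 to 5.73, changed by -0.34 and 0.13 in TAp73+/+ and by -0.66 at 8 h in TAp73-/-. So its 2 probes do not give one direction.

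Cox6b2 read 9.35 and 9.18 on the untreated TAp73+/+ arrays, 8.89 and 8.84 after 4 h and 8.81 and 8.94 after 8 h. In TAp73-/- cells it read 9.06 and 8.99 before, 8.60 and 8.48 after 4 h and 8.89 and 9.09 after 8 h. The 4 h arrays of TAp73-/- are the lowest of all, and its rise from 4 to 8 h there was 0.45 ± 0.11 (adjusted p = 0.0257).

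No subunit was called for a difference between the genotypes in the 4 h or in the 8 h response by limma, against 0.304% and 0.478% of all genes. At an unadjusted p below 0.05 there were 5 subunits of 72 at 4 h (Ndufa4, Ndufa5, Ndufb2, Ndufb10 and Ndufb11) and 3 at 8 h (Ndufb2, Ndufb11 and Cox6b2). The share of all genes at that threshold is not given here, so no genotype dependence is read from these counts. At 8 h the smallest was that of Ndufb11, with a difference in response of -0.54 (95% interval -0.94 to -0.14, adjusted p = 0.208). For the 4 members called at 8 h in both genotypes the difference in response was -0.14 for Cox7a2l (-0.54 to 0.26), -0.05 for Ndufv3 (-0.34 to 0.25), 0.16 for Cox7a1 (-0.26 to 0.59) and 0.05 for Ndufa6 (-0.31 to 0.40). These intervals are wide beside the changes themselves.

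**Figure D4:**
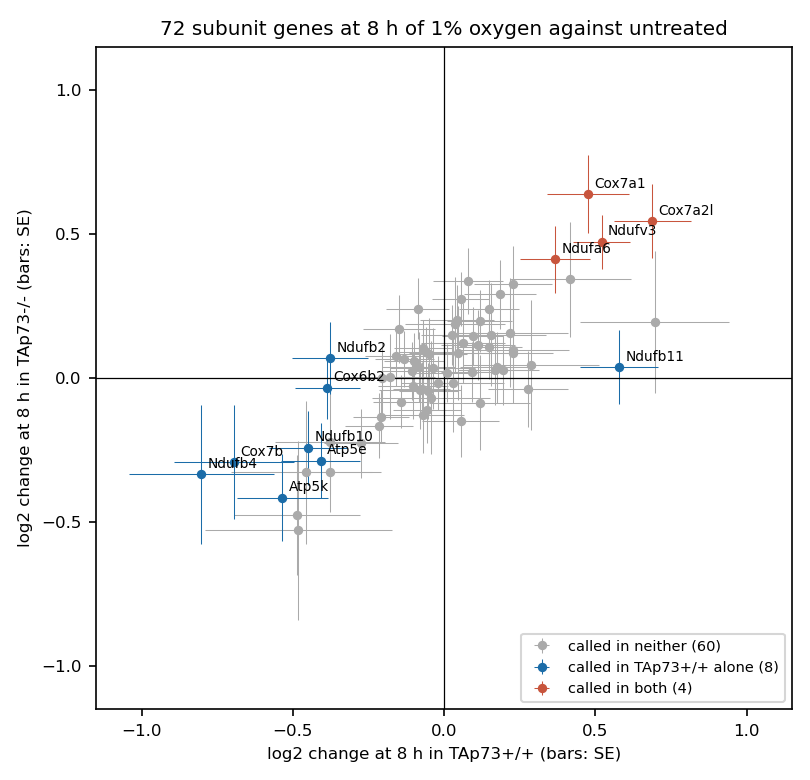
Log2 change of each of the 72 subunit genes at 8 h of 1% oxygen in TAp73+/+ (horizontal) and in TAp73-/- cells (vertical), with bars of 1 SE. The 4 genes called in both lie at the upper right, and 8 more were called in TAp73+/+ alone.

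Between the genotypes, subunits differed in both directions. In TAp73-/- against TAp73+/+ cells, 6 were higher and 12 lower untreated (25% of the 72, against 38.4% of all genes, 18% higher and 20.4% lower). At 4 h, 9 were higher and 10 lower (26.4% against 36.5%, 18.5% and 18%), and at 8 h, 9 higher and 7 lower (22.2% against 36.3%, 18.2% and 18.2%). Averaged over the 3 times, 16 were higher and 17 lower (45.8% against 59.8%, 28.3% and 31.4%), with a median difference of -0.04 over the subunits and -0.03 over all genes. That median was -0.30 with the probe score (all genes 0.01) and -0.13 with median centring (all genes -0.09). Each time has its own arrays of both genotypes. Called at all 3 times were Atp5e, Ndufb5 and Ndufb9, higher in TAp73-/- (4.17% of subunits against 9.58% of all genes), and Atp5k, Cox6b1, Ndufb3, Ndufb10 and Sdhc, lower (6.94% against 9.03%). All 6 arrays of TAp73-/- lay above all 6 of TAp73+/+ for 6 subunits and below them for 10, which is 22.2% of the subunits where 21.5% of all genes were so separated.

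Sdhc, a membrane anchor of succinate dehydrogenase, read 12.26 and 12.06 on the untreated TAp73+/+ arrays, 12.05 and 12.09 after 4 h and 12.05 and 12.06 after 8 h. In TAp73-/- cells it read 11.66 and 11.37 before, 11.46 and 11.37 after 4 h and 11.49 and 11.48 after 8 h. All TAp73-/- arrays are below all TAp73+/+ arrays, and its changes with oxygen were -0.10 to -0.03, none called. The averaged difference was -0.62 ± 0.07 (adjusted p = 1.57e-05), called at each time and without each array in turn. The other anchor, Sdhd, was higher in TAp73-/- by 0.65 ± 0.12 averaged over times, with overlapping arrays. It read 10.34 and 9.96 on the untreated arrays of TAp73-/- and 9.83 and 10.49 on those of 4 h, so that the partners differ. Sdhb, the iron-sulfur subunit, was not called (0.25 ± 0.11).

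In complex IV, Cox4i1 read 13.93 and 13.92 on the untreated TAp73+/+ arrays, 13.90 and 13.90 after 4 h and 13.91 and 14.05 after 8 h. In TAp73-/- cells it read 13.47 and 13.52 before, 13.67 and 13.54 after 4 h and 13.74 and 13.80 after 8 h, all below the TAp73+/+ arrays. The averaged difference was -0.31 ± 0.06 (adjusted p = 0.000567), called untreated (-0.43) and at 4 h (-0.30) and not at 8 h (-0.21). At 1% oxygen its changes were -0.03 and 0.05 in TAp73+/+ and 0.10 and 0.28 in TAp73-/-, none called.

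Cox6b1, the common counterpart of Cox6b2, was at 13.72 to 13.95 on the TAp73+/+ arrays and at 13.16 to 13.47 on the TAp73-/- arrays (-0.47 ± 0.06, adjusted p = 4.14e-05), so the genotypes do not overlap. Cox7a2, the widely expressed counterpart of Cox7a1, was lower (-0.34 ± 0.08) and Cox7a1 higher (0.31 ± 0.08) in TAp73-/-, each with overlapping arrays. Cox5a was higher by 0.18 ± 0.07, a call that held without 1 of the 12 arrays (untreated TAp73+/+ replicate 2) and ended without each of the others. Cox5b (-0.09) and Cox6a1 (-0.09) were not called.

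In complex I, 7 subunits were higher and 8 lower in the averaged comparison. Ndufb10, of the membrane arm, was at 10.53 to 11.17 on the TAp73+/+ arrays and at 9.83 to 10.31 on the TAp73-/- arrays (-0.70 ± 0.07, adjusted p = 1.6e-05), yet its second probe was called in the opposite direction (0.55). Ndufb3 (-0.47), Ndufa3 (-0.39) and Ndufa10 (-0.32) were lower without overlap. Ndufb5 was at 9.04 to 9.50 in TAp73+/+ and at 9.88 to 10.33 in TAp73-/- (0.80 ± 0.09, adjusted p = 1.72e-05), and Ndufb9 at 9.93 to 10.22 and 10.49 to 10.79 (0.61 ± 0.07, adjusted p = 3.57e-05). Both are membrane-arm subunits, and their calls in the averaged comparison and at 4 and 8 h held without each array in turn. Ndufb4 (0.81) was higher without overlap, with 8.06 and 8.99 on the 4 h arrays of TAp73-/-. Ndufab1, the acyl carrier protein that is also a complex I subunit, read -0.20 on the probe used and 0.64 on another of its 4 probes, both called.

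In complex III, 0 subunits were higher and 2 lower, of which Uqcrq differed by -0.25 ± 0.07. Uqcrc1 (0.00 ± 0.06) was not called, and Uqcrfs1, the Rieske iron-sulfur protein, was detected on 5 of 12 arrays, with a difference of 0.20 that was not called. In complex V, 5 subunits were higher and 3 lower. Atp5k was at 7.22 to 7.995 on the TAp73+/+ arrays and at 6.53 to 7.18 on the TAp73-/- arrays (-0.78 ± 0.09, adjusted p = 2.32e-05), and was called at each time and without each array in turn. Its second probe, dimmer at 4.5 to 5.3, was called in the opposite direction (0.33). Atp5e was at 8.82 to 9.42 and 9.42 to 9.88 (0.56 ± 0.08, adjusted p = 9.62e-05), higher without overlap. Atp5md, known as DAPIT (0.84 ± 0.18), was higher with overlap, its values in TAp73-/- running from 7.80 to 9.08. Atp5a1, the alpha subunit, read 0.63 on the probe used and -0.91 on its second probe, both called, so no direction can be given for it. Atp5b (-0.06) and the c-ring subunits Atp5g2 (-0.10) and Atp5g3 (0.10) were not called.

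**Figure D5:**
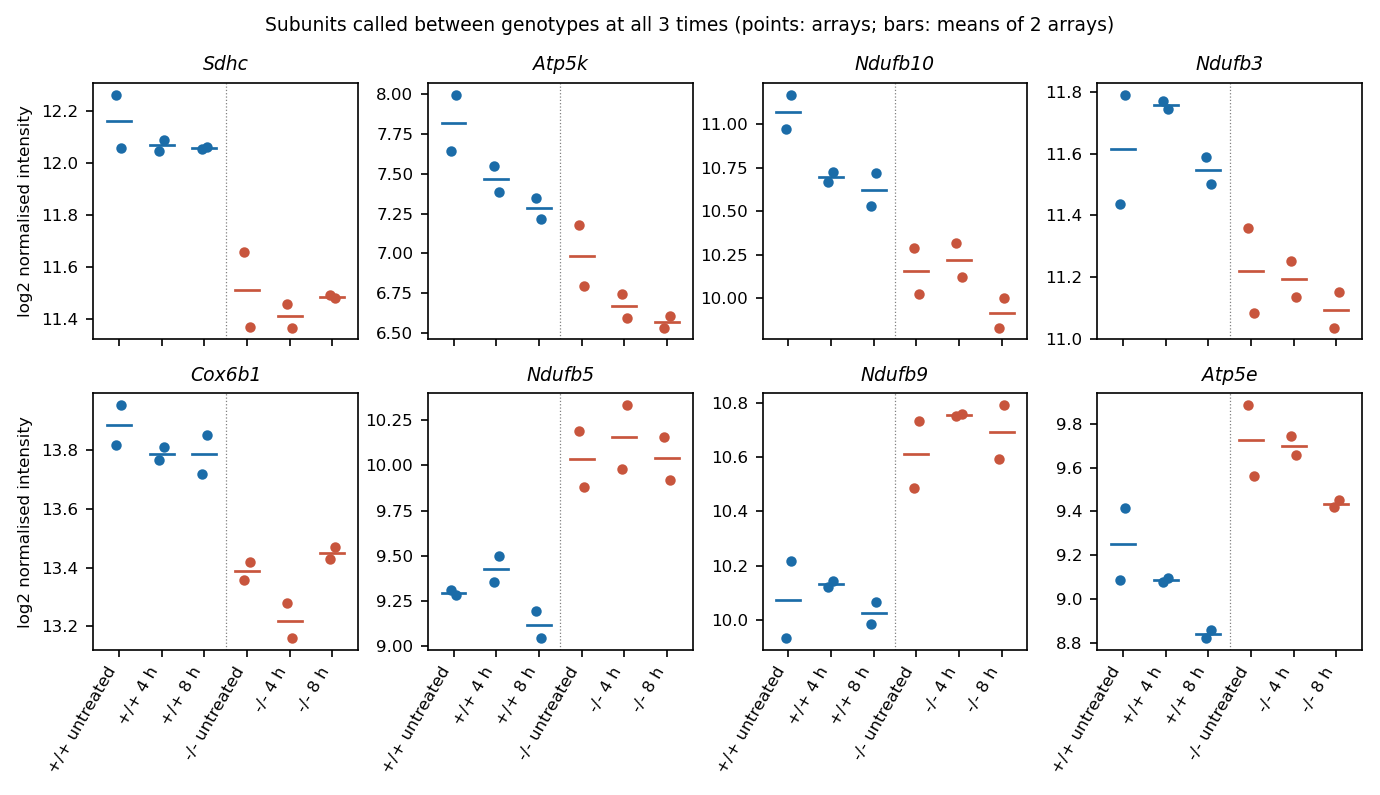
Log2 normalised intensity on every array (points) of the 8 subunits called between the genotypes at all 3 times, with the mean of 2 arrays (bars), for TAp73+/+ and TAp73-/- in separate colours. The 6 TAp73-/- arrays lie below the TAp73+/+ arrays for Sdhc, Atp5k, Ndufb10, Ndufb3 and Cox6b1 and above them for Ndufb5, Ndufb9 and Atp5e.

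In the averaged comparison 11 of the called members have other probes past detection, and 12 of these 18 probes had the same sign, 9 of them called. The 5 members with a probe of opposite sign are Atp5a1, Atp5k, Atp5pb, Ndufab1 and Ndufb10. With the probe score as a covariate, no subunit was called untreated (1.6% of all genes), at 8 h (5.17%) or averaged (4.92%), and 8 were called at 4 h (12.8%), all lower. The covariate raised the median standard error of the subunits from 0.07 to 0.26 in the averaged comparison. With median centring the split was 1 higher and 13 lower untreated, 9 and 10 at 4 h, 3 and 10 at 8 h, and 12 and 21 averaged. The median of all genes was then -0.10, -0.05, -0.14 and -0.09, and that of the subunits -0.125, -0.17, -0.09 and -0.13. The shares of all genes called with this scaling are not given here. Without untreated TAp73+/+ replicate 1 the median untreated difference was -0.11 over the subunits and -0.03 over all genes. With that array it was -0.02 and -0.03, and some of the untreated calls ended without it.

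Genes around the chain were examined in lists that were not part of the set. The counts at 8 h stand beside 11.6% of all genes higher and 12.3% lower in TAp73+/+, and 10.6% and 10.2% in TAp73-/-. Among 9 genes of the hypoxic switch at mitochondria, 6 rose and none fell at 8 h in TAp73+/+ and 5 rose in TAp73-/-. The median changes were 0.67 and 0.59. Without untreated TAp73+/+ replicate 1 the median in TAp73+/+ was 0.63, with fewer genes called. Pdk1 rose by 2.33 ± 0.11 in TAp73+/+ (adjusted p = 2.36e-07) and by 1.56 ± 0.11 in TAp73-/- (adjusted p = 6.8e-06). Lonp1 rose by 1.34 ± 0.12 and 0.92 ± 0.12, and Fam162a, a mitochondrial protein induced by hypoxia, by 1.86 ± 0.14 and 1.05 ± 0.14. Beside Lonp1 in the subunit exchange, Cox4i2 was not detected and Cox4i1 was not called.

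Assembly factors are proteins that build the complexes without staying in them. Of 42 tested of 50 listed, 13 fell and none rose at 8 h in TAp73+/+ (median -0.26), and 7 fell and 1 rose in TAp73-/- (median -0.14). Without untreated TAp73+/+ replicate 1 the medians were -0.29 in TAp73+/+ and -0.14 in TAp73-/-. The calls changed in both genotypes, since the spread is estimated over all groups. Coa7, of complex IV assembly, fell by 1.23 ± 0.16 in TAp73+/+ and by 0.74 ± 0.16 in TAp73-/-. Ndufaf4, of complex I assembly, fell by 0.85 ± 0.15 and 1.09 ± 0.15, and its partner Ndufaf3 by 0.79 ± 0.11 and 0.50 ± 0.11. Bcs1l, which inserts the Rieske protein into complex III, rose by 0.35 ± 0.10 in TAp73-/-. At 4 h, 4 rose and 6 fell in TAp73+/+ (12% and 16% of all genes), with a median of -0.11. Without that array the median was -0.115, with fewer rises called. In TAp73-/- none was called at 4 h, and the median was -0.03 with and without that array.

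Of 14 electron carriers and further subunits tested of 17 listed, 2 fell and none rose at 8 h in TAp73+/+, and 3 fell and 1 rose in TAp73-/-. The median in TAp73+/+ was -0.03, and -0.10 without untreated TAp73+/+ replicate 1. Cycs, the cytochrome c that links complexes III and IV, fell in both (by 0.46 ± 0.11 and 0.74 ± 0.11). Of 12 regulators of mitochondrial biogenesis tested of 13 listed, 2 rose and 4 fell at 8 h in TAp73+/+, and 3 fell in TAp73-/-. The median in TAp73+/+ was -0.09, and -0.19 without untreated TAp73+/+ replicate 1, with fewer genes called. Nrf1, the nuclear respiratory factor (by 0.57 ± 0.14 and 0.64 ± 0.14), and the mitochondrial transcription factor Tfb2m (by 0.52 ± 0.09 and 0.49 ± 0.09) fell in both. Of 11 citric acid cycle genes tested of 13 listed, 2 fell in TAp73+/+ and 1 in TAp73-/-. Idh3a, a subunit of isocitrate dehydrogenase, fell in both (by 0.45 ± 0.09 and 0.36 ± 0.09), and Ogdh, of the oxoglutarate dehydrogenase complex, fell by 0.43 ± 0.14 in TAp73+/+.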

How the data were processed

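For each probe and array, the deposited unnormalised table gives an intensity and a detection p-value, per the file headers. A deposited series matrix gives processed intensity values on a linear scale, attributed to Partek (version not given in the sources used here) per the submitters' processing notes. Within each array it ranks the probes as the unnormalised table does, and it was used as an alternative only.

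Normexp background correction, informed by the detection p-values and with an offset of 16, was followed by quantile normalisation and log2 (neqc in limma 3.58.1, R 4.3.3). Of 45281 probes, 21223 passed the detection filter. Genes were named from the platform annotation (34885 probes with 1 symbol, 18 with several and 10378 with none), which gave 10873 genes for testing. All 12 arrays entered a single linear model with group means (lmFit and eBayes, total degrees of freedom 10.8) and 12 contrasts, and a call is a Benjamini-Hochberg adjusted p under 0.05 over all genes. Values after ± are standard errors of that model, with 2 arrays per group, whose number limits the precision. The fitting was tested on simulated data. Promoters are from RefSeq, GRCm38.p6.

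The members and the lists of further genes were chosen with earlier results of these data known. Named were called members with the largest changes and no overlap (up to 8 each way per contrast), the alternative and core subunits, members whose probes differ in sign, and up to 3 genes each way per further list. The probe score is the first principal component of the deviations of 11530 probes from their gene's mean, with members left out, and holds 50.2% of that variance. Slide and date are not in the labels used here, so no slide block was fitted. The values without untreated TAp73+/+ replicate 1 for the ranges of group means and for the further lists were added after the data were seen.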

Additional observations from a re-analysis of the deposited data

How the results depend on the processing

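Background correction left out and the deposited processed values each gave 2 members called from 4 to 8 h in TAp73+/+ (1 in the main analysis), 2 at 4 h (1) and 7 at 8 h (4) in TAp73-/-, and 6 from 4 to 8 h in TAp73-/- (3). Median centring gave 5 at 4 h in TAp73+/+ (15) and 1 from 4 to 8 h in TAp73-/-. No detection filter gave 7 at 8 h in TAp73+/+ (12), and the mean of all probes of a gene gave 0 from 4 to 8 h in TAp73+/+. Fitting only the arrays compared gave 6 at 4 h, 5 at 8 h and 6 from 4 to 8 h in TAp73+/+, and 0 at 4 h and 0 from 4 to 8 h in TAp73-/-. The probe score as a covariate gave 0 in every comparison but 2, with 4 at 8 h in TAp73-/- and 8 between the genotypes at 4 h. Except for the probe score, shares of all genes under the same setting are not given for these counts. The same holds for the counts below with arrays left out. A changed count therefore cannot be told from a change in how many genes are called in general.

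Leaving out 1 array at a time, called members numbered between 2 and 26 (4 h), 2 and 16 (8 h) and 0 and 5 (8 h against 4 h) in TAp73+/+, and between 0 and 3, 2 and 7, and 0 and 9 in TAp73-/-. Between the genotypes the limits were 12 and 23 (untreated), 10 and 23 (4 h), 8 and 20 (8 h) and 27 and 37 (averaged), and for the difference in response 0 and 2 (4 h) and 0 and 0 (8 h).

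Of 122 calls of single members, an offset of 50, a stricter detection filter, no background correction and the deposited values kept all 122, median centring 84, no detection filter 107 and the mean of probes 101. Whether the replicate numbers pair the samples is not stated in the labels. Differences between replicates gave 15 correlations between groups of -0.25 to 0.13, 2 of them over 0.1, which cannot settle it. With the replicate number as a block, 112 of the 122 calls held, with 13 members called at 4 h and 9 at 8 h in TAp73+/+, 17 between the genotypes untreated, 15 at 8 h and 30 averaged.

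Signs turned in 6 calls with the mean of probes: Atp5a1 between the genotypes at 8 h (-0.06) and averaged (-0.14), Ndufab1 averaged (0.11) and untreated (0.08), Ndufb10 at 4 h (0.063), and Ndufv3 from 4 to 8 h in TAp73+/+ (-0.025). With the probe score 24 turned, with standard errors from 0.23 (Cox5a, averaged) to 0.54 (Ndufs4, untreated). At 4 h in TAp73+/+ these were Atp5l (-0.26), Atp5mpl (0.021), Atp5pb (-0.86), Cox6b2 (0.22), Cox7a2l (-0.17), Ndufa4 (-0.42), Ndufa5 (-0.15), Ndufa6 (-0.31), Ndufc2 (-0.56), Ndufs3 (-0.75), Ndufs4 (-0.78) and Uqcrc2 (-0.20). Between the genotypes they were, averaged, Atp5h (-0.35), Atp5pb (-1.14), Cox5a (-0.33), Ndufb2 (-0.028), Ndufs3 (-0.72), Ndufs4 (-0.70) and Uqcrq (0.031), untreated, Atp5h (-0.66), Atp5pb (-1.35), Ndufs4 (-0.90) and Uqcrq (0.048), and Atp5h at 8 h (-0.33). The cause of these changes was not tested, except that fewer arrays entered the fits of only the arrays compared. The 2 arrays per group limit what can be called.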
